A study of Mus musculus with 24 samples.

Results

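The genes described here encode the ion channels of the excitable membrane: every gene in the probe annotation used here whose symbol begins with Kcn, with Scn followed by a number and the letter a or b, or with Cacn. The rule used names alone and no measured value. It found 90 genes among the 13840 that carried a single symbol there, of which 67 were potassium, 5 sodium and 18 calcium channel genes. Where a gene had 2 probes, which was so for 3 of the 90, the brighter one was taken. By role, 57 genes encode pore-forming subunits, 25 encode auxiliary subunits and 8 encode modifier subunits that form no channel alone, called silent. Of the 90, 65 were classed as voltage-gated channels and their companions, including by name the Cacng genes, several of which instead accompany AMPA receptors. Symbols in Kcn also cover inward rectifiers (Kcnj), leak channels with a pair of pore domains (Kcnk) and channels opened by calcium or sodium ions inside the cell (Kcnn, Kcnt), and with these the other 25 were classed apart.

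Mice of 4 groups were compared in brain and in liver: Acads-/- on high-fat (HF) diet, Acads-/- on low-fat (LF) diet, Acads+/+ on HF diet and Acads+/+ on LF diet, with 3 male mice in each. Acads encodes short-chain acyl-CoA dehydrogenase, the mitochondrial enzyme that starts the oxidation of short-chain fatty acids. All mice were 12 weeks old, had been raised on chow, and ate the HF or LF diet for 2 days before the tissue was taken. The Acads-/- mice were of strain BALB/cByJ and the Acads+/+ mice of the related strain BALB/cByKZ, so that strain and genotype cannot be told apart, and the brain was taken whole, so that fewer cells of a type and less RNA per cell cannot be told apart either.

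RNA from each mouse was hybridised to its own one-colour array of 33012 probes, giving 12 arrays per tissue. Acads itself averaged 9.44 ± 0.57 in Acads-/- HF brains against 11.82 ± 0.09 in Acads+/+ HF brains, and 8.92 ± 0.88 in Acads-/- LF brains against 10.79 ± 0.79 in Acads+/+ LF brains (log2 signal, SD, n = 3 each). The neuronal gene Stmn2 stood at percentile 99.65 of all probes in brain and 43.1 in liver, and Alb, the hepatocyte albumin gene, at 77.5 in brain and 99.81 in liver. The Acads+/+ HF brain arrays stood apart from the other 9. Set against the average Acads+/+ LF array, the median tested channel gene lay at 0.43, 0.77 and 0.61 log2 units on the Acads+/+ HF arrays, against a range of -0.09 to 0.16 on the 3 Acads-/- HF, 3 Acads-/- LF and 3 Acads+/+ LF arrays. Every brain comparison that involves the Acads+/+ HF group rests on those 3 arrays.

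Neurons fire by the ordered opening of these channels. Sodium channels drive the upstroke of the action potential, potassium channels end it and set the resting potential and the interval to the next spike, and calcium channels turn the depolarisation into transmitter release and signalling. The pore-forming subunit holds the ion path, while auxiliary subunits carry it to the membrane and shift its gating.

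The channel genes were brain genes by their rank on the arrays. The median member stood at percentile 62.5 of all probes by mean signal in brain and 36.2 in liver, and 67 of the 90 ranked higher in brain. Testing was limited to the brighter 50% of probes by mean signal, a filter that 59 members passed in brain and 30 in liver; 21 passed in both, 38 in brain alone, 9 in liver alone and 22 in neither. Members that missed the filter are described from a fit over all probes and are not counted as called. The filter used the mean over all 12 arrays, so that a member near the limit could pass it through 1 group. Differences in rank between tissues were wide for single genes: Cacng2, which encodes stargazin, a companion of AMPA receptors, stood at percentile 89.14 in brain and 10.16 in liver, and Kcnj3, a subunit of the G protein-gated potassium channel, at 62.28 in brain and 2.65 in liver. In the other direction Cacna1c, the L-type pore of heart and neurons, stood at 3.42 in brain and 67.74 in liver, but the liver rank rested on the third Acads-/- LF array, which read 12.49 log2 units against 7.41 to 9.03 on the other 11, and with 1 liver array left out in turn it was as low as 29.76.

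**Figure D1:**
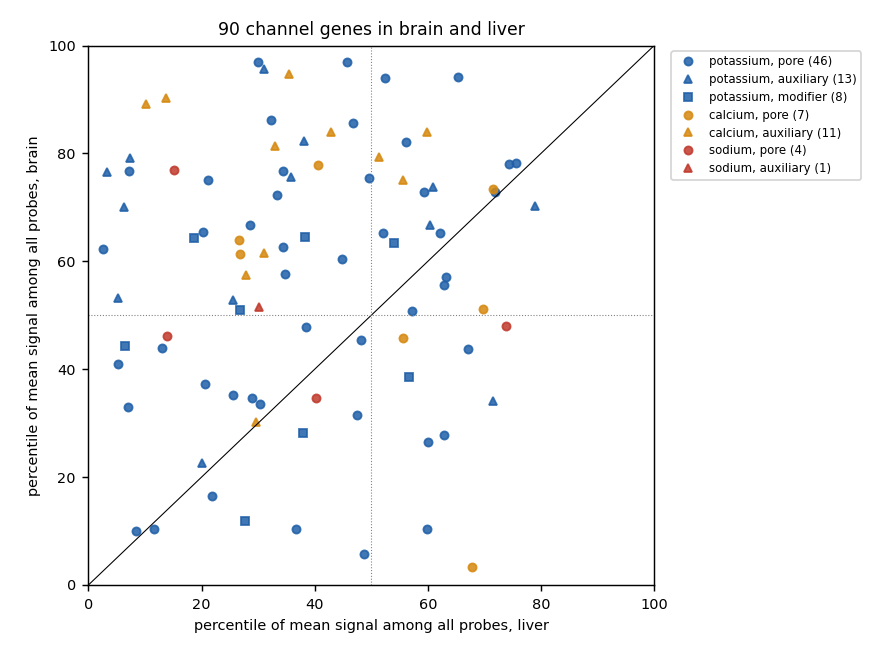
Percentile of mean signal among all probes in brain (vertical axis) and in liver (horizontal axis) for the 90 channel genes, coloured by ion and shaped by role. Points above the diagonal, 67 of 90, rank higher in brain, and the dotted lines mark the filter at the median.

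Every channel gene called in brain was higher in Acads+/+ HF brains than in the Acads-/- HF or Acads+/+ LF brains they were compared with. Of 59 members, 20 were higher and 0 lower in Acads+/+ HF brains than in Acads+/+ LF brains by limma (adjusted p under 0.05, with a fold limit of 1.6), against 15.5% of all 16506 tested probes called higher and 17.3% called lower. The median log2 fold change was 0.63 for the tested members and 0.12 for all tested probes. Over all 90 members, with those under the filter included, it was 0.55. Between Acads-/- HF and Acads+/+ HF brains, 0 members were higher and 18 lower, against 17.5% of all tested probes higher and 17.4% lower, with a median of -0.59 for the tested members and -0.13 for all tested probes. Both comparisons contain the Acads+/+ HF arrays, so that a gene high on those arrays enters each of them. At an unadjusted p under 0.05 and the same fold, 22 members were higher and 1 lower for diet in Acads+/+, and 0 higher and 22 lower for genotype on HF diet. The methods' t-test after Benjamini-Hochberg adjustment ended most of these calls, leaving 4 members higher by diet in Acads+/+ and 0 lower by genotype on HF diet.

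The other brain comparisons called no member. Diet in Acads-/- mice gave 0 of 59 in either direction by limma, against 0% of all tested probes higher and 0% lower, and 1 higher and 2 lower at an unadjusted p. Genotype on LF diet gave 0 in either direction, against 0.0182% of all probes higher and 0% lower, and 1 higher and 0 lower at an unadjusted p. Acads itself, at -1.87 log2 units in that comparison, was not called either. The lack of calls there thus does not show a lack of difference. Acads-/- HF against Acads+/+ LF, which leaves the Acads+/+ HF arrays out of the contrast, gave 0 in either direction, against 0.0182% of probes higher and 0.0121% lower, with 1 higher and 1 lower at an unadjusted p. The methods' t-test on the same values, unadjusted, called 1 member higher for genotype on LF diet and none in the other 2 comparisons, and none in any of the 3 after Benjamini-Hochberg adjustment. The member medians in these 3 comparisons were -0.07, 0.06 and 0.00 log2 units.

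**Figure D2:**
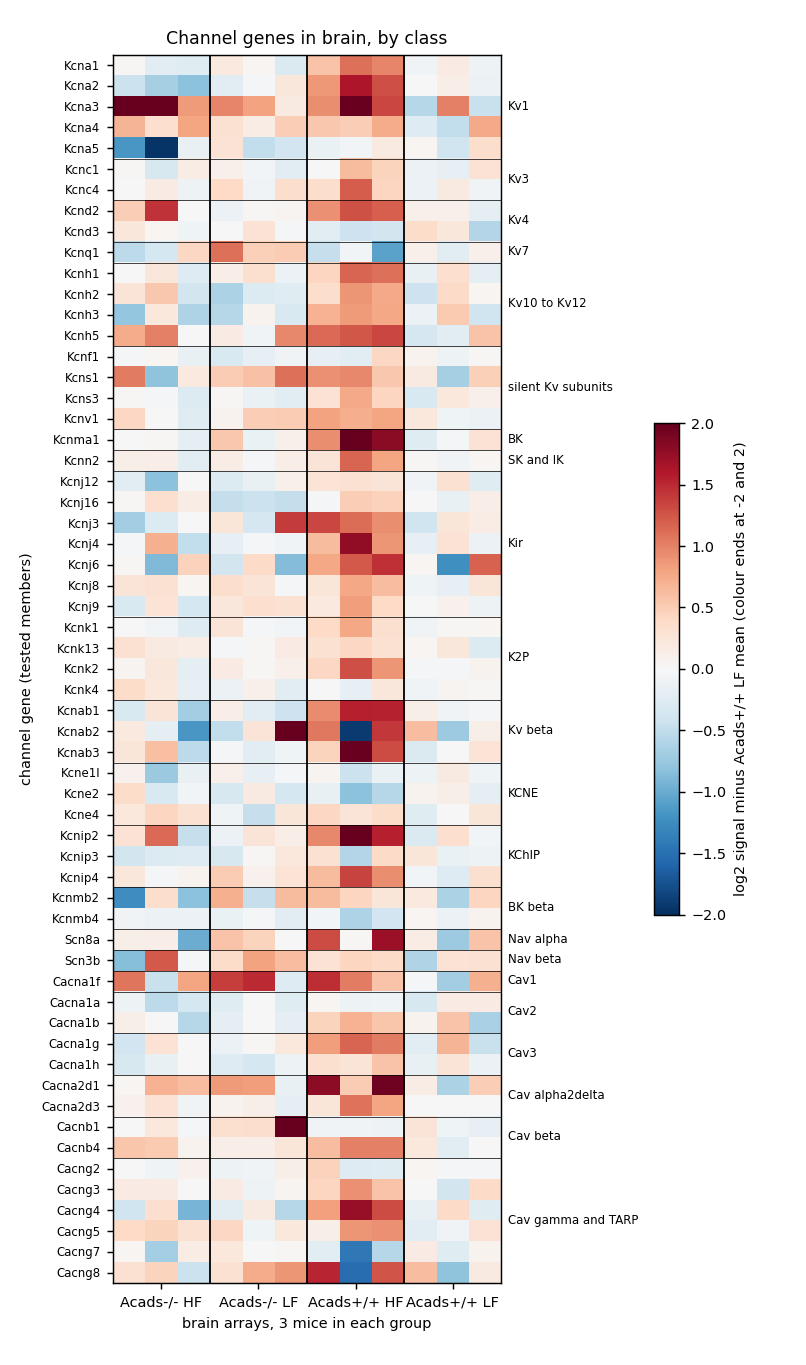
Log2 signal of the 59 tested channel genes (rows, by class) on the 12 brain arrays (columns, 3 per group) minus the gene's mean in Acads+/+ LF. Red is higher and blue lower, and the columns of Acads+/+ HF hold most of the red, with the member median at 0.43, 0.77 and 0.61 on those 3 arrays.

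Shaker-type (Kv1) potassium channels open at low voltage along the axon and set how readily a spike is followed by another. Of 7 members 5 were tested. Kcna2, the axonal Kv1 subunit, read 11.28, 11.04 and 10.89 in Acads-/- HF brains, 11.48, 11.67 and 11.94 in Acads-/- LF brains, 12.58, 13.32 and 12.99 in Acads+/+ HF brains, and 11.69, 11.84 and 11.59 in Acads+/+ LF brains. The Acads+/+ HF values overlapped no other group, and all 3 Acads-/- HF values lay below the other 9. Kcna2 was 3.71-fold lower in Acads-/- HF than in Acads+/+ HF (log2 -1.89, SE 0.20, adjusted p = 0.000163) and 2.39-fold higher in Acads+/+ HF than in Acads+/+ LF (log2 1.26, SE 0.20, adjusted p = 0.00105). Between Acads-/- HF and Acads-/- LF it differed by -0.63 (SE 0.20, adjusted p = 0.437). Kcna1, its usual partner, which is mutated in human episodic ataxia, read 17.03, 16.80 and 16.76 in Acads-/- HF and 17.56, 18.10 and 17.98 in Acads+/+ HF, with 16.93, 17.16 and 16.90 in Acads+/+ LF. It was 2.03-fold lower by genotype on HF diet (adjusted p = 0.00155) and 1.84-fold higher by diet in Acads+/+ (adjusted p = 0.00374), and with arrays scaled by their median alone these log2 values were -0.52 and 0.35 and neither reached the fold of 1.6.

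Other Kv1 genes did not share this pattern. Kcna5, best known from heart and vessel, read 10.80, 10.01 and 11.82 in Acads-/- HF and 11.84, 11.91 and 12.15 in Acads+/+ HF. It was lower by genotype on HF diet (log2 -1.09, SE 0.39, adjusted p = 0.0403), with an estimate of 0.00 for diet in Acads+/+ (adjusted p = 0.999). Kcna3, the Kv1 channel of lymphocytes and of some neurons, had a log2 difference of 1.42 (SE 0.57) by diet in Acads+/+ and 1.39 by diet in Acads-/-, and passed in neither (adjusted p = 0.0635 and 0.484). Its spread within groups was wide, with 11.86, 12.94 and 10.60 in Acads-/- HF and 10.73, 10.56 and 9.93 in Acads-/- LF.

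The cytoplasmic beta subunits dock on Kv1 channels, where Kcnab1 speeds their inactivation. All 3 were tested and 2 were called. Kcnab1 read 12.55, 13.11 and 12.15 in Acads-/- HF, 12.98, 12.62 and 12.44 in Acads-/- LF, 13.79, 14.40 and 14.39 in Acads+/+ HF, and 12.97, 12.78 and 12.81 in Acads+/+ LF, so that Acads+/+ HF again stood above every other array. It was 3.01-fold lower by genotype on HF diet (log2 -1.59, SE 0.25, adjusted p = 0.000842) and 2.54-fold higher by diet in Acads+/+ (log2 1.34, SE 0.25, adjusted p = 0.00229). Kcnab3 was 2.20-fold lower by genotype on HF diet and 2.36-fold higher by diet in Acads+/+ (adjusted p = 0.0261 and 0.0188), though its Acads+/+ HF values of 13.01, 14.54 and 13.86 reached into the Acads-/- HF range of 12.04 to 13.17. Kcnab2, the commonest beta subunit of the brain, was not called: single arrays set its spread, with 16.59 on 1 Acads-/- LF array against 11.78 and 12.54 on the others, and 10.37 on 1 Acads+/+ HF array against 13.33 and 13.69.

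Kv4 channels carry the transient A-type current of dendrites and work in a complex with the calcium-binding KChIP proteins. Kcnd2, the main dendritic Kv4 pore, read 17.56, 17.93 and 17.85 in Acads+/+ HF and 16.76, 16.75 and 16.45 in Acads+/+ LF, and was 2.19-fold higher by diet in Acads+/+ (log2 1.13, SE 0.29, adjusted p = 0.0107). Scaled by the array median alone, the difference was 0.64 and was not called (adjusted p = 0.0631). In Acads-/- HF brains it ranged widely, at 17.15, 18.09 and 16.64, and was not called by genotype on HF diet (log2 -0.49, adjusted p = 0.189). Kcnd3 differed by -0.34 by diet in Acads+/+ (adjusted p = 0.243), and Kcnd1 missed the filter. Among the KChIPs, Kcnip2 read 12.21, 13.05 and 11.46 in Acads-/- HF, 12.89, 13.99 and 13.47 in Acads+/+ HF, and 11.64, 12.27 and 11.86 in Acads+/+ LF. It was 2.88-fold higher by diet in Acads+/+ (log2 1.52, SE 0.38, adjusted p = 0.00834) and 2.31-fold lower by genotype on HF diet (log2 -1.21, SE 0.38, adjusted p = 0.0223). Kcnip4 showed both differences with a smaller spread, 1.96-fold higher by diet in Acads+/+ and 1.85-fold lower by genotype on HF diet (adjusted p = 0.00466 and 0.0067). Kcnip3, which is also a transcriptional repressor, differed by 0.04 and -0.34 and passed in neither. Kcnd2 and 2 of 3 KChIPs thus were called for diet in Acads+/+.

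**Figure D3:**
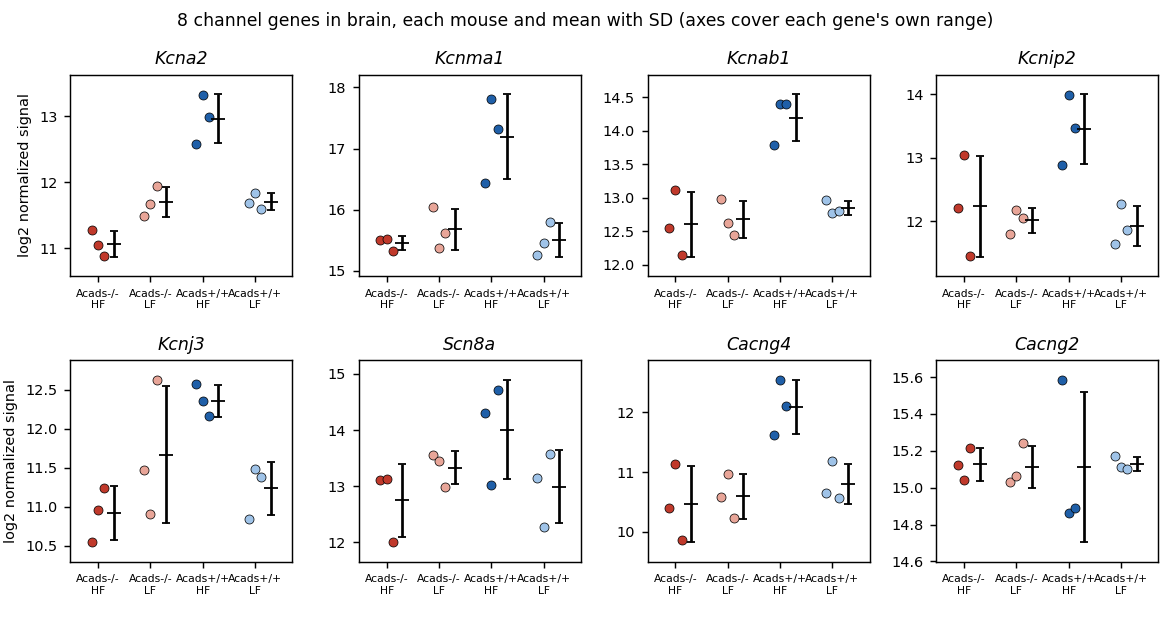
Log2 normalized signal of 8 channel genes in each mouse (points) of the 4 groups (left to right Acads-/- HF, Acads-/- LF, Acads+/+ HF, Acads+/+ LF), with the mean and SD beside them and a vertical axis for each gene. Kcna2, Kcnma1, Kcnab1 and Cacng4 have all 3 Acads+/+ HF points above the rest, while in Scn8a and Cacng2 the groups overlap.

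Ether-a-go-go channels (Kcnh) shape the resting current and the repolarisation of neurons and heart muscle. All 4 tested members had positive estimates for diet in Acads+/+, 0.66 to 1.24 log2 units, and negative ones for genotype on HF diet, -0.52 to -1.16. Kcnh1, its founding mammalian member, read 14.29, 14.51 and 14.02 in Acads-/- HF, 14.71, 15.45 and 15.38 in Acads+/+ HF, and 14.13, 14.63 and 14.09 in Acads+/+ LF. It was called in both comparisons, 1.87-fold lower by genotype on HF diet (adjusted p = 0.00981) and 1.86-fold higher by diet in Acads+/+ (adjusted p = 0.0111). Kcnh5, its close relative, was called by diet in Acads+/+ alone, at 2.36-fold (log2 1.24, adjusted p = 0.0124), though its second, dimmer probe gave 0.34, and its log2 estimate for genotype on HF diet was -0.65 (adjusted p = 0.126). Kcnh3, a forebrain member, was called by genotype on HF diet alone, at 2.24-fold lower (adjusted p = 0.00849), with 0.77 by diet in Acads+/+ (adjusted p = 0.0509). Kcnh2, the channel of cardiac repolarisation, passed in neither, at -0.52 and 0.66. Kcnh7 missed the filter, with means of 8.35 in Acads+/+ HF and 8.54 in Acads+/+ LF.

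Silent subunits change the gating of other Kv pores and make no current alone. Of 8 silent genes 4 were tested and 1 was called. Kcnv1 read 12.04, 11.62 and 11.39 in Acads-/- HF, 12.44, 12.35 and 12.42 in Acads+/+ HF, and 11.84, 11.54 and 11.50 in Acads+/+ LF, a 1.65-fold decrease by genotype on HF diet (adjusted p = 0.0108) and a 1.71-fold increase by diet in Acads+/+ (adjusted p = 0.00833). Kcns1, a modifier of Kv2 pores in sensory and other neurons, differed by -0.66 and 0.80 and passed in neither. The fast-spiking Kv3 pores were not called. Kcnc1 differed by -0.41 (adjusted p = 0.126) and 0.35 (adjusted p = 0.181), and its second, dimmer probe had the opposite signs, at 0.75 and -0.47. Of the Kv7 genes, Kcnq1, the channel of heart and inner ear, differed by 0.38 and -0.53 and passed in neither. Kcnq3, a pore of the M-current that restrains repeated firing, missed the filter: it read 9.31, 8.27 and 9.06 in Acads-/- HF, 9.87, 10.14 and 9.83 in Acads+/+ HF, and 8.28, 8.27 and 8.36 in Acads+/+ LF. In the fit over all probes its log2 differences were -1.06 (adjusted p = 0.0424) and 1.64 (adjusted p = 0.0084).

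Kcnma1 encodes the pore of the large-conductance BK channel, which voltage and calcium open together to cut short the spike. It had the largest estimate of any tested member for diet in Acads+/+. Its values were 15.50, 15.53 and 15.32 in Acads-/- HF, 16.04, 15.38 and 15.61 in Acads-/- LF, 16.44, 17.82 and 17.31 in Acads+/+ HF, and 15.26, 15.46 and 15.80 in Acads+/+ LF. The lowest Acads+/+ HF value lay above the highest of the other 9, and those 9 spanned 15.26 to 16.04. Kcnma1 was 3.34-fold lower by genotype on HF diet (log2 -1.74, SE 0.31, adjusted p = 0.00141) and 3.21-fold higher by diet in Acads+/+ (log2 1.68, SE 0.31, adjusted p = 0.00194). Its beta subunits did not follow it. Kcnmb4, the neuronal BK beta subunit, read 16.75, 16.71 and 16.70 in Acads-/- HF, 16.77, 16.21 and 16.43 in Acads+/+ HF, and 16.87, 16.71 and 16.90 in Acads+/+ LF, with log2 differences of 0.25 (adjusted p = 0.201) and -0.35 (adjusted p = 0.0804). Kcnmb2 differed by -1.01 and 0.44 and passed in neither. Kcnn2, the small-conductance channel of the afterhyperpolarisation, was the only 1 of 4 SK and IK genes tested, and was 1.66-fold lower by genotype on HF diet (adjusted p = 0.015) and 1.67-fold higher by diet in Acads+/+ (adjusted p = 0.015), from 13.22, 14.12 and 13.75 in Acads+/+ HF against 12.98, 12.89 and 13.01 in Acads+/+ LF.

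The 250 bases before the start of 2 genes called higher by diet in Acads+/+ are printed because they differ in the GC box (GGGCGG on either strand), which binds Sp-family factors: Kcnma1 holds 3 matches, shown in capitals with 1 overlapping another, and Kcnk2 holds 0. Sequences are RefSeq promoters of build GRCm38.p6, 5′ to 3′ on the gene's strand. Kcnma1 is at chr14:24004206-24004455 on the minus strand and Kcnk2 at chr1:189402274-189402523 on the minus strand.
Kcnma1: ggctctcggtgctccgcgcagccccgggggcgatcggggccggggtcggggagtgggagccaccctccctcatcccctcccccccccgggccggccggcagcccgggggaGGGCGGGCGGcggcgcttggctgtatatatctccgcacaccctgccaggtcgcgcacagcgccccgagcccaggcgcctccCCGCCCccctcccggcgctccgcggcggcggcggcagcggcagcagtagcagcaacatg
Kcnk2: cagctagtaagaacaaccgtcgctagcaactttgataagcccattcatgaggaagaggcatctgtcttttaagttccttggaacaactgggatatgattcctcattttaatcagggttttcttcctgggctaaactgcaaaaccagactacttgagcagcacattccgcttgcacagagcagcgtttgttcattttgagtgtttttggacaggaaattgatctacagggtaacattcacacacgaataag
Of the 90 members 69 had a promoter in the table, and where a gene had several the first listed was used. A GC box occurred in 35 of these 69 (50.7%), against 32.9% of the promoters of all 27025 genes, and in 10 of 14 called higher by diet in Acads+/+ (71.4%), 17 of 34 tested and not called (50%) and 8 of 21 not tested (38.1%). The median number of CG pairs ran alongside, 17.5, 9 and 6 in those 3 sets and 6 over all genes. A TATA box (TATAAA, either strand) occurred in 2 of 69 (2.90%), against 13.0% of all genes. A match describes the letters of the window and was not tested as a binding site.

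Inward rectifiers hold the membrane near rest, and of 12 such genes 7 were tested. All 7 had positive estimates for diet in Acads+/+ and negative ones for genotype on HF diet, and 2 were called in each. Kcnj6 passed the filter narrowly, with a mean signal of 1480 against 1407. Its log2 mean was 11.26 in Acads+/+ HF against 9.97 in Acads-/- HF, 9.83 in Acads-/- LF and 10.11 in Acads+/+ LF. Under the filter, Kcnj1, Kcnj5 and Kcnj15 had lower means in Acads+/+ HF than in Acads+/+ LF. These read 8.59 against 8.87, 8.58 against 8.71 and 8.52 against 9.41, while Kcnj2 and Kcnj14 were higher (9.54 against 9.03 and 10.63 against 9.91). Kcnj3, the common subunit of the channels that opioid, muscarinic and GABA-B receptors open, read 10.54, 10.96 and 11.24 in Acads-/- HF, 11.47, 10.91 and 12.63 in Acads-/- LF, 12.57, 12.35 and 12.16 in Acads+/+ HF, and 10.84, 11.48 and 11.38 in Acads+/+ LF. The highest Acads-/- LF value reached the Acads+/+ HF range. It was 2.73-fold lower by genotype on HF diet (log2 -1.45, SE 0.37, adjusted p = 0.00953) and 2.18-fold higher by diet in Acads+/+ (log2 1.13, SE 0.37, adjusted p = 0.0305). Its partners Kcnj6 and Kcnj9 were not called, at -1.29 and -0.60 by genotype on HF diet and 1.15 and 0.48 by diet in Acads+/+. Kcnj4, a strong rectifier of forebrain neurons, was 2.04-fold lower and 2.13-fold higher in the same comparisons (adjusted p = 0.0249 and 0.0206). Kcnj16, a glial and renal subunit, had the smallest p of all members for diet in Acads-/-, from 12.05, 12.36 and 12.17 in Acads-/- HF against 11.55, 11.60 and 11.55 in Acads-/- LF. These values did not overlap, but the log2 difference of 0.62 (SE 0.17) had an adjusted p of 0.435. The Acads-/- LF values also lay below those of Acads+/+ LF, at 12.04, 11.88 and 12.16, and of Acads+/+ HF, at 11.99, 12.52 and 12.49. Kcnj16 had the smallest p of all members for genotype on LF diet too, and was not called there.

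Leak channels with paired pore domains set the resting conductance, and 4 of 8 were tested. Kcnk2, which stretch, lipids and anaesthetics open, read 13.16, 13.33 and 12.92 in Acads-/- HF, 13.27, 13.13 and 13.20 in Acads-/- LF, 13.52, 14.40 and 13.99 in Acads+/+ HF, and 13.08, 13.07 and 13.17 in Acads+/+ LF. Outside Acads+/+ HF all 9 values lay within 12.92 to 13.33. It was 1.78-fold lower by genotype on HF diet (adjusted p = 0.00723) and 1.82-fold higher by diet in Acads+/+ (adjusted p = 0.00656). Kcnk1 differed by -0.61 and 0.50 log2 units, with adjusted p = 0.00989 and 0.0248, and stayed under the fold limit in both. Kcnk3, an acid-sensitive leak channel, missed the filter. It read 8.47, 10.36 and 8.84 in Acads-/- HF, 10.87, 10.55 and 11.02 in Acads+/+ HF, and 8.69, 8.19 and 8.46 in Acads+/+ LF, with log2 differences of -1.59 (adjusted p = 0.0254) and 2.37 (adjusted p = 0.00561) over all probes. Kcng4, Kcns2 and Kcnk10 also were higher by diet in Acads+/+ in that fit, at 1.74, 2.27 and 1.56 log2 units (adjusted p = 0.0311, 0.0164 and 0.0351).

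**Figure D4:**
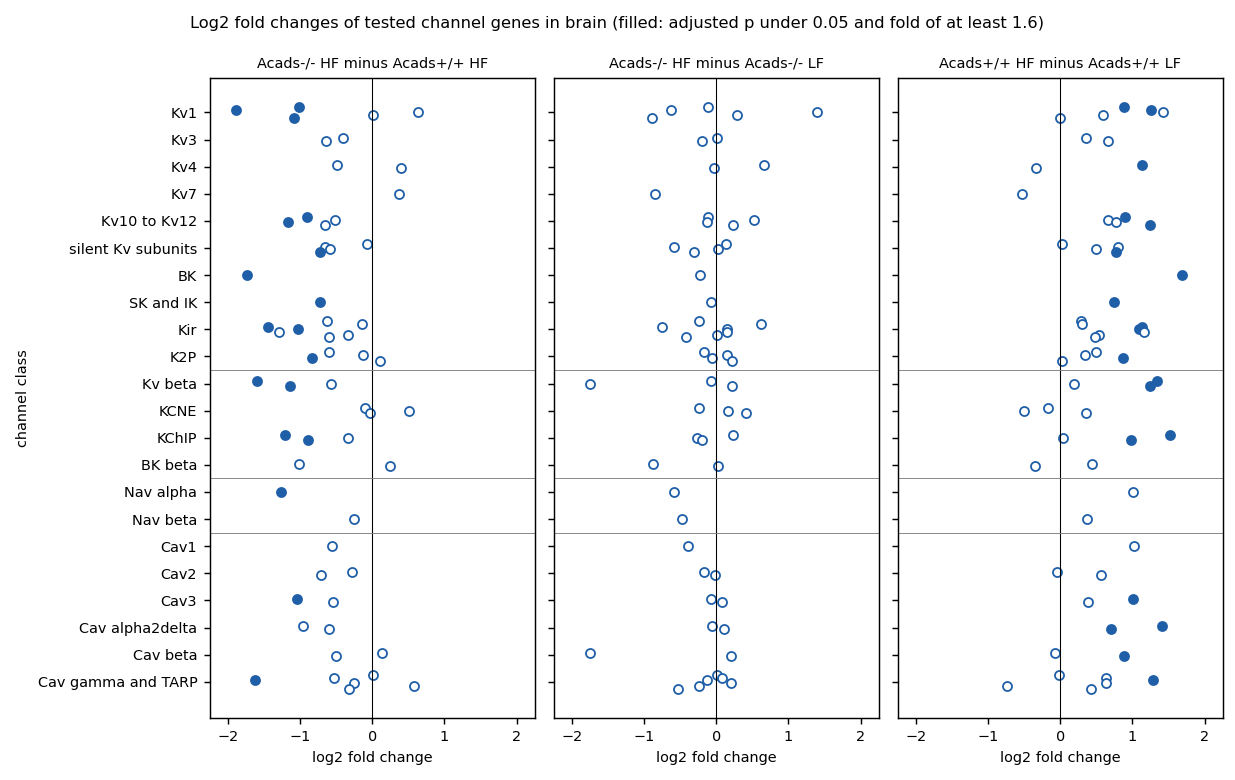
Log2 fold change of each tested channel gene (points), by class (rows), for Acads-/- HF minus Acads+/+ HF, Acads-/- HF minus Acads-/- LF, and Acads+/+ HF minus Acads+/+ LF. Filled points passed the test and the fold limit: 18 at the left, all negative, 0 in the middle, and 20 at the right, all positive.

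Few sodium channel genes could be read in this way, since 2 of 5 were tested. Scn8a, the pore of the axon initial segment and nodes, read 13.11, 13.12 and 12.00 in Acads-/- HF, 13.56, 13.45 and 12.99 in Acads-/- LF, 14.30, 13.01 and 14.71 in Acads+/+ HF, and 13.14, 12.27 and 13.57 in Acads+/+ LF. It was 2.40-fold lower by genotype on HF diet (log2 -1.26, SE 0.47, adjusted p = 0.0459), although 1 Acads+/+ HF value lay among the Acads-/- HF values, and its increase by diet in Acads+/+ did not pass (log2 1.01, SE 0.47, adjusted p = 0.0984). Scn3b, an auxiliary subunit, differed by -0.25 and 0.37 and passed in neither. Under the filter, Scn10a, a pore known from pain-sensing neurons, ran the other way, at 9.31, 9.02 and 9.65 in Acads+/+ HF against 11.35, 10.49 and 10.71 in Acads+/+ LF (log2 -1.53, adjusted p = 0.00515 over all probes), and was the only 1 of the 90 lower in that fit. Scn3a, a pore of the developing brain, differed by 1.18 by genotype on HF diet (adjusted p = 0.051), with 10.87, 11.25 and 10.15 in Acads-/- HF and 9.96, 9.11 and 9.63 in Acads+/+ HF.

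Calcium channel genes were called higher by diet in Acads+/+ in 5 of 15, against 15.5% of all tested probes. By genotype on HF diet 2 of 15 were called lower, against 17.4% of all tested probes. Among the pores only Cacna1g, the low-voltage T-type channel of thalamic bursting, was called, at 11.17, 11.84 and 11.57 in Acads-/- HF, 12.39, 12.71 and 12.60 in Acads+/+ HF, and 11.33, 12.23 and 11.10 in Acads+/+ LF. It was 2.06-fold lower by genotype on HF diet (log2 -1.04, SE 0.27, adjusted p = 0.0105) and 2.02-fold higher by diet in Acads+/+ (log2 1.01, SE 0.27, adjusted p = 0.0128). Cacna1a, the P/Q-type pore of transmitter release, read 11.63, 11.20 and 11.38 in Acads-/- HF, 11.77, 11.63 and 11.65 in Acads+/+ HF, and 11.42, 11.89 and 11.89 in Acads+/+ LF. Its differences of -0.28 and -0.05 (SE 0.17 each) passed in neither comparison, and Cacna1b, the N-type pore, likewise was not called at -0.72 and 0.56. Cacna1c lay at the floor on 3 of 12 brain arrays, with means of 8.54 ± 0.10 in Acads-/- HF, 8.05 ± 0.30 in Acads-/- LF, 8.40 ± 0.10 in Acads+/+ HF and 8.26 ± 0.38 in Acads+/+ LF (SD, n = 3 each) above a floor of 7.87.

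Of the auxiliary calcium channel subunits 4 of 10 were called by diet in Acads+/+ and 1 of 10 by genotype on HF diet, beside 1 of 5 pores in each. The shares of all tested probes were 15.5% higher by diet in Acads+/+ and 17.4% lower by genotype on HF diet. Cacna2d1, the surface-delivery subunit that gabapentin binds, read 13.63, 14.28 and 14.20 in Acads-/- HF, 15.38, 14.09 and 15.54 in Acads+/+ HF, and 13.74, 12.96 and 14.08 in Acads+/+ LF. It was 2.66-fold higher by diet in Acads+/+ (log2 1.41, SE 0.43, adjusted p = 0.0211), while its log2 difference of -0.97 by genotype on HF diet did not pass (adjusted p = 0.0844). Cacna2d3 was 1.63-fold higher by diet in Acads+/+ (adjusted p = 0.0164), from 16.41, 17.26 and 16.96 in Acads+/+ HF against 16.18, 16.16 and 16.17 in Acads+/+ LF, and at 0.39 log2 units lost that call when arrays were scaled by their median alone (adjusted p = 0.0993). Cacnb4, a cytoplasmic subunit whose loss gives the lethargic mouse, was 1.84-fold higher (log2 0.88, SE 0.18, adjusted p = 0.00357), at 15.55, 15.95 and 15.95 in Acads+/+ HF against 15.15, 14.73 and 14.94 in Acads+/+ LF. By genotype on HF diet, Cacna2d3 and Cacnb4 had adjusted p = 0.0301 and 0.0423 with log2 differences of -0.61 and -0.50, under the fold limit. Cacnb1, the beta subunit of muscle and brain, passed in neither, and 1 Acads-/- LF array read 17.43 against 13.02 and 13.06 on the others of that group.

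Genes named Cacng encode claudin-like proteins, several of which accompany AMPA receptors. Cacng4, one of these, read 10.40, 11.13 and 9.86 in Acads-/- HF, 10.58, 10.97 and 10.23 in Acads-/- LF, 11.63, 12.54 and 12.11 in Acads+/+ HF, and 10.65, 11.19 and 10.57 in Acads+/+ LF. The lowest Acads+/+ HF value was above all others, and Cacng4 was 3.08-fold lower by genotype on HF diet (log2 -1.62, SE 0.34, adjusted p = 0.00345) and 2.44-fold higher by diet in Acads+/+ (log2 1.29, SE 0.34, adjusted p = 0.0117). Cacng2 did not move with it. It read 15.12, 15.04 and 15.22 in Acads-/- HF, 15.58, 14.86 and 14.89 in Acads+/+ HF, and 15.17, 15.11 and 15.10 in Acads+/+ LF, with differences of 0.01 and -0.02 (SE 0.18 each). The remaining 4 tested members of the class, Cacng3, Cacng5, Cacng7 and Cacng8, had estimates of -0.74 to 0.64 by diet in Acads+/+ and were not called.

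By role, 11 of 33 pore-forming genes (33.3%), 8 of 22 auxiliary genes (36.4%) and 1 of 4 silent genes were higher by diet in Acads+/+. By genotype on HF diet, 12 of 33 pore-forming (36.4%), 5 of 22 auxiliary (22.7%) and 1 of 4 silent genes were lower. Of all tested probes, 15.5% were higher by diet in Acads+/+ and 17.4% lower by genotype on HF diet. The median log2 fold change over all members of a role was 0.59 for pores and 0.42 for auxiliary subunits by diet in Acads+/+, and -0.52 and -0.34 by genotype on HF diet. Of the genes classed as voltage-gated and of the others, the shares were 16 of 47 (34%) and 4 of 12 (33.3%) by diet in Acads+/+ and 14 of 47 (29.8%) and 4 of 12 (33.3%) by genotype on HF diet. By ion, 15 of 42 potassium, 0 of 2 sodium and 5 of 15 calcium channel genes were higher by diet in Acads+/+, and 15 of 42, 1 of 2 and 2 of 15 were lower by genotype on HF diet. None of these differences between roles, kinds or ions was tested. The only auxiliary class without a positive median was that of the KCNE peptides, at -0.22 over its 4 genes, with Kcne2, an abundant choroid plexus transcript, at -0.51 (adjusted p = 0.0944).

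Whether diet acted differently in the 2 genotypes was asked by the interaction, the diet difference in Acads-/- minus that in Acads+/+. It was negative for 50 of the 59 tested members, with a median of -0.81 against -0.14 for all tested probes, and 10 members were called lower and 0 higher, against 10.6% of all tested probes lower and 12.1% higher. The called members were Kcna1, Kcna2, Kcnh1, Kcnv1, Kcnma1, Kcnj3, Kcnj9, Kcnk2, Kcnab1 and Kcnip4, all of them potassium channel genes. Potassium channel genes made up most of the tested members, and no difference between ions was tested. Of the 15 calcium and 2 sodium channel genes, 0 were called, and at an unadjusted p 18 members passed. For Kcna2 the diet difference was -0.63 in Acads-/- and 1.26 in Acads+/+, an interaction of -1.88 (SE 0.29, adjusted p = 0.00268), and for Kcnma1 it was -0.23 and 1.68, an interaction of -1.91 (SE 0.43, adjusted p = 0.0118). The count of 10 depended on single arrays: it was 19 without the first Acads+/+ HF array and 16 without the second Acads-/- HF array, and 5 without the first Acads+/+ LF or the first Acads-/- LF array, in the order in which values are given above.

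Calls were also followed gene by gene with each of the 12 brain arrays left out in turn, the arrays being numbered in the order in which their values are given above. Of the 20 genes called higher by diet in Acads+/+, 10 kept the call in every such fit: Kcna1, Kcna2, Kcnd2, Kcnh1, Kcnv1, Kcnma1, Kcnab1, Kcnip2, Kcnip4 and Cacnb4. Kcnk2, Kcnn2 and Cacng4 lost it without the second Acads+/+ HF array alone, and Kcnh5 and Cacna1g without the first Acads+/+ LF array alone. Cacna2d3 lost it without the second or the third Acads+/+ HF array, Kcnab3 without either of these or the first Acads+/+ LF array, and Kcnj4 without the second Acads+/+ HF, the first Acads+/+ LF or the third Acads+/+ LF array. Cacna2d1 lost it without the first or the third Acads+/+ HF or the second Acads+/+ LF array, and Kcnj3 without any 1 of the 3 Acads+/+ HF arrays or without the first or the third Acads+/+ LF array. Of the 18 genes called lower by genotype on HF diet, 10 kept the call in every fit: Kcna1, Kcna2, Kcnh1, Kcnh3, Kcnma1, Kcnj3, Kcnab1, Kcnip4, Cacna1g and Cacng4. Kcnk2 lost it without the second Acads+/+ HF array, Kcnv1 without the third Acads-/- HF array, and Kcnn2 without either of these. Kcnj4 lost it without the first or the third Acads-/- HF or the second Acads+/+ HF array, Kcnab3 without the third Acads-/- HF or the second or the third Acads+/+ HF array, and Kcnip2 without the first or the third Acads-/- HF or the second or the third Acads+/+ HF array. Scn8a lost the call in 8 of the 12 fits and Kcna5 in 7. In the interaction Kcna2, Kcnv1, Kcnma1 and Kcnab1 kept the call in every fit. Kcnip4 lost it without the first Acads-/- LF array, Kcna1 without that array or the first Acads+/+ LF array, Kcnj3 in 3 fits, Kcnh1 in 9, and Kcnk2 and Kcnj9 in 10 each.

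Channel genes are long, and on the Acads+/+ HF brain arrays the signal moved with gene length. The median genomic span was 55999 bases for the 59 tested members and 20281 bases for the 9027 tested probes with a span. Across those probes the rank correlation of the fold change by diet in Acads+/+ with span was 0.42, and on single arrays, relative to the Acads+/+ LF mean, it was 0.34 to 0.43 on the 3 Acads+/+ HF arrays against -0.14 to 0.10 on the other 9. Genes and probes are not independent replicates, and these correlations share the same arrays. In the tertile of genes with the shortest span, up to 11739 bases, 2 of 12 members (16.7%) were higher by diet in Acads+/+, against 7.18% of all genes there. In the middle tertile it was 4 of 11 members (36.4%) against 19.5% of genes, and in the tertile with spans over 34833 bases 14 of 36 members (38.9%) against 31.0%. Most tested members, 36 of 59, thus fell in the tertile where the share called higher was greatest among all genes. Once each array's trend on span was taken out, 9 members were higher and 4 lower by diet in Acads+/+, and 4 were higher and 9 lower by genotype on HF diet, with member medians of 0.32 and -0.21. Of the 20 genes called higher by diet in Acads+/+, 6 kept the call after that step, Kcna1, Kcna2, Kcnma1, Kcnab1, Kcnab3 and Kcnip2, and the 4 called lower were Kcnd3 (-0.88), Kcnq1 (-1.10), Kcnmb4 (-0.78) and Cacng7 (-1.11). Of the 18 called lower by genotype on HF diet, 8 kept the call: Kcna1, Kcna2, Kcna5, Kcnh3, Kcnma1, Kcnab1, Kcnab3 and Cacng4. Within the members the rank correlation of fold change with span was 0.25. In the tertile of longest spans the members with a negative estimate were Kcnd3 (222113 bases), Kcnq1 (320174), Kcnmb4 (55999), Cacna1a (301621), Cacng2 (128302) and Cacng7 (36195). All other members of that tertile had positive estimates. The part of span, or of what varies with it, in these differences was not tested beyond these values.

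**Figure D5:**
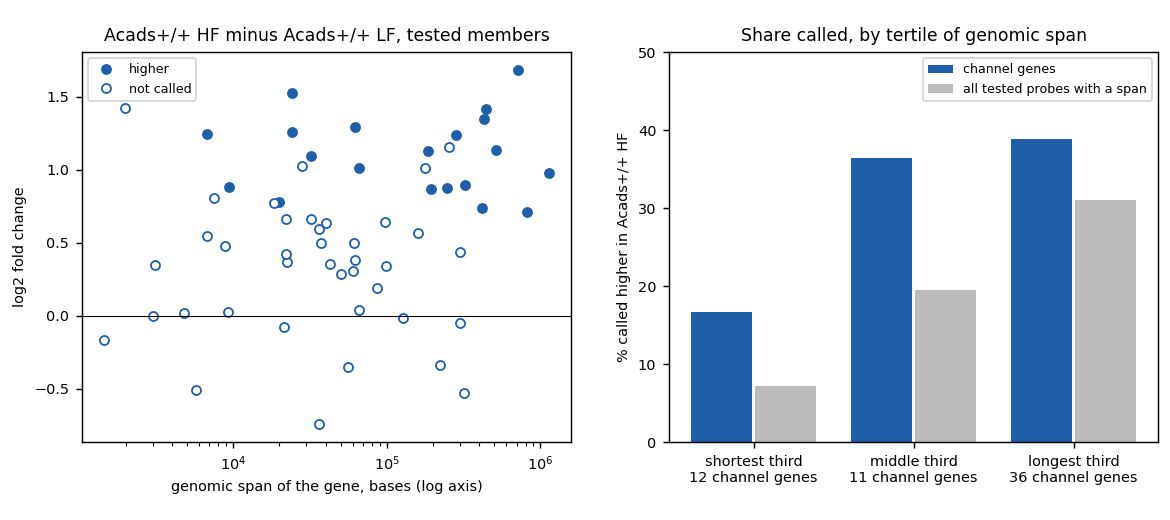
Left, log2 fold change of Acads+/+ HF minus Acads+/+ LF against genomic span (log axis) for the 59 tested channel genes, with those called higher filled. Right, the percentage called higher in each tertile of span for channel genes (blue, 16.7, 36.4 and 38.9) and for all tested probes with a span (grey, 7.18, 19.5 and 31.0).

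Genes that work beside the channels were read from a list that held HCN channels, Dpp6 and Dpp10, fibroblast growth factor homologous factors, anchors of the axon initial segment and node, scaffolds, release proteins and ion pumps, and 36 of its 48 genes were tested. By diet in Acads+/+ 11 were higher and 3 lower, against 15.5% and 17.3% of all tested probes, with a median of 0.54. By genotype on HF diet 2 were higher and 11 lower, against 17.5% and 17.4% of all tested probes, with a median of -0.55. Ank3, the ankyrin that clusters sodium and Kv7 channels at the initial segment, was lower by genotype on HF diet (log2 -1.35) and had 1.34 by diet in Acads+/+. Atp1b1, a subunit of the sodium pump, had -1.49 and 1.22. Fgf12 and Fgf13, which bind the tail of sodium channels, went opposite ways, at 0.80 and -0.89 by genotype on HF diet and -0.72 and 0.90 by diet in Acads+/+. Of the Kv4 companions, Dpp10 was called higher by diet in Acads+/+ (log2 0.69, adjusted p = 0.00676) and stayed under the fold limit by genotype on HF diet (log2 -0.65, adjusted p = 0.00824), while Dpp6 and the HCN genes Hcn2 and Hcn3 were called in neither.

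Markers of cell types also differed on the Acads+/+ HF arrays. The counts below stand beside 15.5% of all tested probes higher and 17.3% lower by diet in Acads+/+. Summed signals are set mostly by the brightest genes. Of 7 tested neuronal markers, 2 were higher, Nefl (log2 1.14) and Eno2 (1.13), and 2 lower, Syt1 (-0.90) and Snap25 (-2.17). Snap25 was not particular to Acads+/+ HF: it differed by -1.95 by diet in Acads-/- (adjusted p = 0.435). By genotype on HF diet it had 1.34 (adjusted p = 0.0852). The summed signal of the neuronal markers was 1820000 to 2070000 on the Acads+/+ HF arrays against 1250000 to 1370000 on the Acads+/+ LF arrays. Of 4 oligodendrocyte markers, 2 were higher and 0 lower, with sums of 428000 to 833000 in Acads+/+ HF against 201000 to 264000 in Acads+/+ LF. Astrocyte markers were called in 0 of 4, with sums of 892000 to 1040000 in Acads+/+ HF against 623000 to 753000 in Acads+/+ LF, and endothelial and pericyte markers in 1 of 5, higher. Of the microglial markers 1 of 4 was higher and 2 lower, and of the hepatocyte markers 0 of 5 were called. Of the choroid plexus markers 0 of 5 were higher and 1 lower, with sums of 1140000 to 1890000 in Acads+/+ HF against 2010000 to 2190000 in Acads+/+ LF. Of 3 tested blood markers 1 was higher and 2 lower. Sums over the 4 with a probe were 72200 to 137000 in Acads+/+ HF against 345000 to 359000 in Acads+/+ LF. Of 4 tested pituitary markers 0 were higher and 1, Lhb, was lower (log2 -1.65, adjusted p = 0.0287). Lhb differed by -1.12 by diet in Acads-/- (adjusted p = 0.519) and by 0.17 by genotype on HF diet. The summed signal of the 5 pituitary markers with a probe was 4600 to 8570 in Acads-/- HF and 8800 to 1380000 in Acads-/- LF. It was 5300 to 6400 in Acads+/+ HF and 6990 to 1820000 in Acads+/+ LF. The part of cell composition in the channel genes' differences was not tested.

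In liver no channel gene was called. Of 30 tested members, 0 passed in any of the 6 comparisons by limma, against 0% of all tested probes for genotype on HF diet, genotype on LF diet, diet in Acads+/+, the interaction, and Acads-/- HF against Acads+/+ LF, and 0.109% for diet in Acads-/-. At an unadjusted p, 0 members were higher and 1 lower for genotype on HF diet, and 1 was higher and 3 were lower for diet in Acads-/-. The methods' t-test called, without adjustment, 3 members lower for genotype on HF diet and 2 lower when diets were compared in Acads-/-. The member medians were -0.01 for diet in Acads+/+ and -0.16 for genotype on HF diet, in log2 units. The spread between liver arrays was larger, with a median residual SD of 0.52 against 0.27 in brain, so that only larger differences could have been called there. Acads itself was not called in liver by genotype on HF diet (limma, log2 -1.68, adjusted p = 0.743).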

How the data were processed

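Brain and liver RNA of 12 mice per tissue was hybridised to Applied Biosystems arrays read in 1 colour. The authors extracted the signal intensity of each probe with the scanner software and deposited it without normalization. They also deposited log2 values that, per the study's methods, were quantile-normalized by the authors. These log2 values carry replicate numbers, which the intensity columns lack, and were used as an alternative and for the fit with the replicate number as a block. All value columns were mapped to a group (0 unmapped), and the arrays' number limits the precision.

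Here the deposited intensities were quantile-normalized per tissue across its 12 arrays, raised to at least the 5th percentile (a signal of 234.7 in brain and 141.8 in liver) and put on the log2 scale. Only the brighter 50% of probes by mean signal were tested, a filter in place of the methods' filter on signal to noise. The test of differences between the 4 groups was that of limma (lmFit, eBayes; version 3.58.1, R 4.3.3), all 12 arrays sharing one estimate of the spread. Every adjusted p is limma's after Benjamini-Hochberg adjustment over all 16506 tested probes of the tissue, or over all 33012 probes where a gene missed the filter. A call needed an adjusted p under 0.05 together with the study's own fold limit of 1.6. The pipeline was tested on simulated data with known changes.

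Genes were named through the array's annotation, in which 14411 probes had 1 symbol, 247 several and 18354 none listed. Probes with several or none were given no name. Spans and promoters came from RefSeq (GRCm38.p6). The liver samples on LF diet carry a source name that says high fat, and their titles and treatment labels were followed. Nothing in the labels says that samples sharing a replicate number came from one litter or day.

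The members and lists were chosen with earlier results of these data known. Genes described individually were up to 3 called members per class with the smallest p for diet in Acads+/+, the 5 with the smallest p in each of diet in Acads-/- and genotype on LF diet, and a textbook set, and further members were added after their values were seen. The lists of neighbouring genes and of cell type markers were written by hand. The alternatives tried were the scaling, offset, filter, source of values, block, array weights, samples in the fit, the methods' t-test, the span trend, a component of variation within groups, the threshold, the choice of probe and leaving out each array. The ranks with each array left out were added after seeing the data.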

Additional observations from a re-analysis of the deposited data

Results flagged for a closer look

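The effect of diet was called different between Acads-/- and Acads+/+ brains in 10 channel genes, by the limma test of that difference itself (adjusted p under 0.05). The log2 difference, diet in Acads-/- minus diet in Acads+/+, was -1.88 for Kcna2, -1.91 for Kcnma1, -1.08 for Kcnv1, -1.42 for Kcnab1, -1.17 for Kcnip4, -1.003 for Kcna1, -1.88 for Kcnj3, -0.93 for Kcnk2, -0.89 for Kcnj9 and -1.02 for Kcnh1. All 10 contain the 3 Acads+/+ HF arrays, which stood apart from the other 9, and the share of all tested probes called in the same direction was 10.6%. With each array left out in turn, 4 of the 10 kept the call in every fit: Kcna2, Kcnv1, Kcnma1 and Kcnab1. Of the 10, 2 kept it under every alternative in which they were tested, Kcna2 and Kcnma1.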

How the results depend on the processing

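No brain call of a member changed sign under any alternative. Of the 20 called higher by diet in Acads+/+, 2 kept the call under every alternative that tested them, Kcna2 and Kcnab1. Of the 18 called lower by genotype on HF diet, 0 did. The 18 members lower by genotype on HF diet and the 20 higher by diet in Acads+/+ numbered 25 and 24 with median scaling, 17 and 21 with an offset of 500, 16 and 19 with no filter, 18 and 20 with the authors' log2 values, 12 and 21 with only the groups compared in the fit, and 10 and 12 with the 25% of probes of highest signal, where 28 members were tested. Without a filter all members were tested, and the counts include genes that had missed it. Among the 19 were Kcnq3, Kcnk3, Kcng4, Kcns2 and Kcnk10, and among the 16 were Kcnq3 and Kcnk3. The 19 and 16 thus do not count genes that kept their call. In that fit diet in Acads+/+ had 1 lower and the interaction 4 lower, against 10 in the interaction as reported. With the replicate block, genotype on HF diet had 18 lower and diet in Acads+/+ 22 higher, with 1 lower for diet in Acads+/+. Same-numbered samples had correlated deviations of 0.216, 0.079 and 0.147 for diet in Acads+/+ and 0.125, 0.091 and -0.115 for genotype on HF diet, which did not establish a pairing. Array weights gave 2 lower for diet in Acads+/+ and 16 lower in the interaction, and the within-group component 1 and 17. The methods' t-test, unadjusted, gave 1 higher for genotype on LF diet, and in liver 3 lower for genotype on HF diet, 2 lower for diet in Acads-/-, and 1 higher and 2 lower for Acads-/- HF against Acads+/+ LF. After adjustment it gave 0 lower for genotype on HF diet and 4 higher for diet in Acads+/+. With the span trend removed, genotype on HF diet had 4 higher and 9 lower, diet in Acads+/+ 9 higher and 4 lower, and the interaction 2 higher and 5 lower. At an unadjusted p there was 1 higher for genotype on LF diet, 1 lower for diet in Acads+/+, 1 higher and 2 lower for diet in Acads-/-, 18 lower in the interaction, and 1 higher and 1 lower for Acads-/- HF against Acads+/+ LF. In liver at an unadjusted p there was 1 lower for genotype on HF diet, 1 higher and 3 lower for diet in Acads-/-, 2 lower in the interaction, and 2 higher for Acads-/- HF against Acads+/+ LF. With 1 array left out, genotype on HF diet had 0 to 2 higher and 13 to 21 lower, diet in Acads+/+ 15 to 24 higher and 0 to 2 lower, the interaction 5 to 19 lower, and Acads-/- HF against Acads+/+ LF 0 to 1 in each direction, while all other counts were 0 to 0. The cause of these changes was not tested. Of 31 brain members and 60 liver members under the signal filter, calls could be made only without it.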
